A study of Homo sapiens with 6 samples.

Results

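TGF-beta, bone morphogenetic protein (BMP) and activin genes were examined in IMR90 ER:Ras cells, which the study describes as senescent, with and without depletion of sin-lncRNA, a long noncoding RNA. The 48 genes were taken by symbol from a table of 57819 genes: ligands, latent binding proteins, receptors, SMADs, antagonists and the ID target genes. All 48 were in the table, and 46 had enough reads to be tested. IMR90 is an established human lung fibroblast line, and ER:Ras is a Ras oncogene joined to an estrogen receptor domain that 4-hydroxytamoxifen (4OHT) switches on. Both groups carried ER:Ras and received 200 nM 4OHT for 3 days: 3 control libraries from cells given a scrambled siRNA (siSCR) and 3 knockdown libraries from cells given an siRNA against sin-lncRNA (labelled si1 in the sample labels and si1.3 in the table, with no explanation of the ending). No cells without 4OHT are among the 6 libraries, so senescence itself was not tested here. All 3 knockdown libraries carry the same siRNA label, so effects of sin-lncRNA loss cannot be told apart from other effects of this siRNA. The labels do not say whether the replicates came from separate cultures, and p-values then measure the spread between these libraries, which may be technical.

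Ligands of this superfamily bind a pair of type II and a pair of type I receptor kinases, and the type I receptor phosphorylates receptor SMADs, which join SMAD4 and enter the nucleus. TGF-beta and activin act mainly through SMAD2 and SMAD3, BMPs through SMAD1, SMAD5 and SMAD9. TGF-beta is known in lung fibroblasts for driving matrix production, activin A is a secreted product of many senescent cells, and the ID genes are classic BMP targets that TGF-beta can repress.

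Library totals ran from 22117324 to 50913672 reads in genes, and each knockdown library was shallower than each control. Levels are given as RPM, reads per 1000000 of the scaled library size, without the offset of 0.5 reads that the deposited log2 values contain. Where a library had 0 reads, up to 3 remain possible from counting error alone, or 0.0596 to 0.134 RPM by library. The targeted lncRNA, taken by gene ID (RP4-530I15.6, ENSG00000234693.1, chromosome 20, 49262008 to 49278812), stood at 3.70, 4.73 and 4.09 RPM in controls and 0.493, 0.640 and 0.534 RPM in knockdowns, a log2 fold change (LFC, knockdown against control) of -2.86 (SE 0.18; limma, adjusted p = 7.9e-07). Of 10 fibroblast markers, 10 were expressed, with summed levels of 15318.2 to 16497.6 RPM in controls and 10852.9 to 11275.2 RPM in knockdowns. COL1A1 and COL1A2 made up most of that sum and of its fall. By gene the list went both ways: 5 markers were called lower (COL1A1, COL1A2, PDGFRB, VIM and DCN), 4 were called higher (COL3A1, LUM, FAP and THY1, with LFCs of 0.38, 0.68, 0.33 and 0.19), and S100A4 was not called. The part of this shift in the results below was not tested. Markers of other cells were low: epithelial markers (1 of 6 expressed) summed to at most 0.570 RPM, with KRT5 at 0 reads, and leukocyte markers (0 of 5) to at most 0.427 RPM. Endothelial markers (2 of the 3 found in the table, PECAM1 being unmatched) summed to at most 8.71 RPM and smooth muscle markers (1 of 2) to at most 8.20 RPM. In such bulk RNA, fewer cells of a kind and less RNA per cell cannot be told apart.

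Most of the genes moved, and mostly upward. Of the 46 tested, 24 were higher in knockdowns (52.2%, against 17.5% of all 19048 genes tested) and 6 were lower (13.0%, against 23.5%), at a limma p-value adjusted by the Benjamini-Hochberg method over all genes and under 0.05. In both directions together 65.2% of the members changed, against 41.0% of all genes. With a filter at a mean of 50 reads, 30 of 43 members and 7328 of 15115 genes were called. The part of expression level in the gap was not tested. In 23 members every knockdown library was above every control and in 5 below; such separate groups were found in 51.1% of all genes. The median LFC of the members was 0.17, and that of all genes was -0.04. The TGF-beta and activin arm had 14 of 23 higher and 1 lower, with a median of 0.22. The BMP arm had 6 of 16 higher and 4 lower, with a median of 0.06. Of its lower calls, 3 were among its 4 ID target genes. The other arm held 1 target gene, TGFBI, called higher. The difference between the arms was not tested. Of the 7 genes counted as shared by both arms, 4 were higher and 1 was lower, with a median of 0.19. The 7 were SMAD4, SMAD7, SMURF1, SMURF2, BAMBI, BMP1 and FSTL1. The counts by arm depend on this assignment. ACVR2B and ENG, which also bind ligands outside the TGF-beta and activin arm, were counted in that arm. An added limit of 0.5 in absolute LFC left 10 members against 13.9% of all genes, 8 higher (6.22% of all genes) and 2 lower (7.65% of all genes). After thinning of reads to the depth of the shallowest library, 29 members were called and SMAD7 was not (limma adjusted p = 0.0647).

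**Figure D1:**
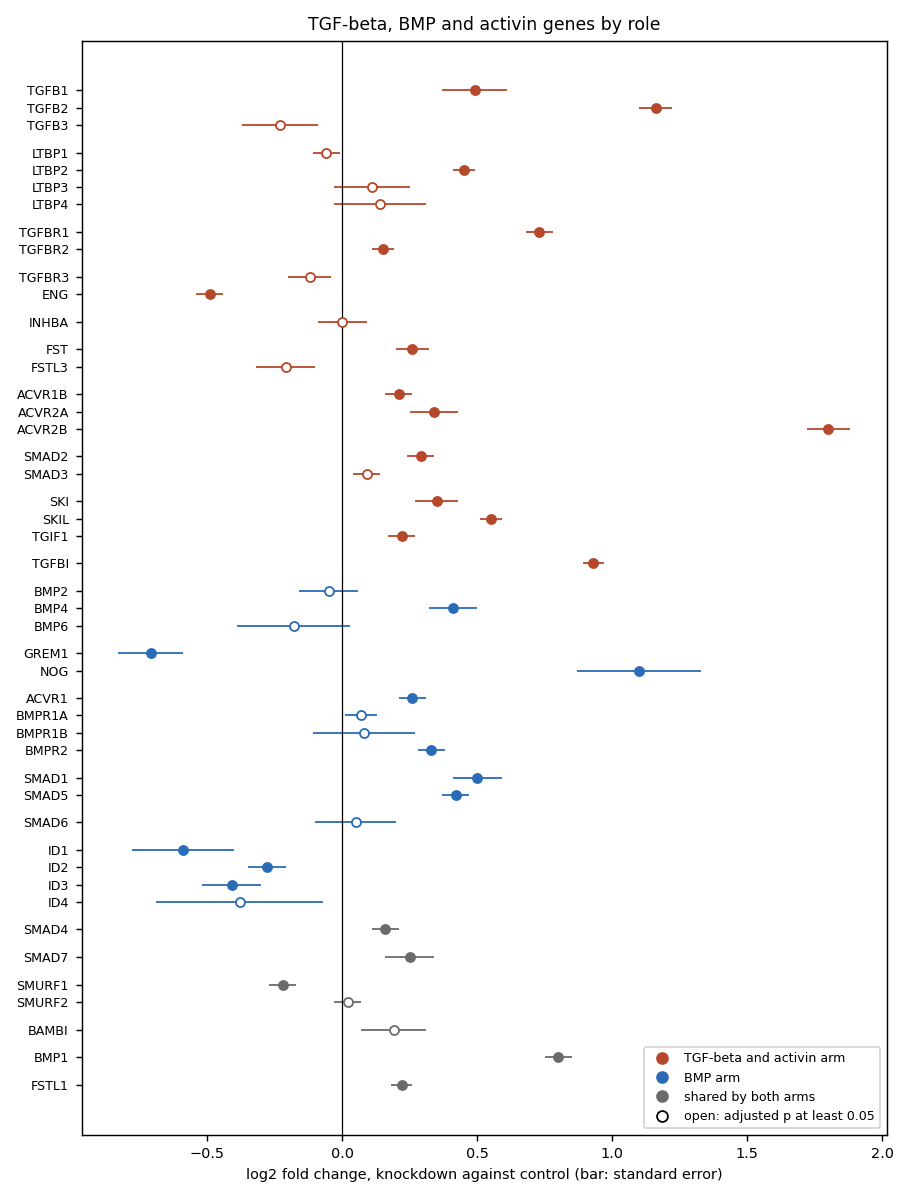
Log2 fold change (LFC) of each tested gene, knockdown against control (horizontal axis), with its standard error, ordered by role and coloured by arm; filled points passed an adjusted p of 0.05. ACVR2B at 1.80 and TGFB2 at 1.16 lie farthest to the right, GREM1 at -0.71 and ID1 at -0.59 farthest to the left.

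Among the TGF-beta ligands, TGFB2 and TGFB1 rose and TGFB3 did not pass the test. TGFB2 (ENSG00000092969.7, chromosome 1, 218519577 to 218617961 in the table's coordinates, hg19 per the submitters' processing notes) stood at 13.2, 13.0 and 13.6 RPM in controls and 29.6, 29.8 and 29.5 RPM in knockdowns. The libraries of each group lay within a narrow band and the bands were far apart. The LFC was 1.16 (SE 0.06; limma, adjusted p = 2.1e-07), or 2.23-fold. TGFB1, the main isoform of fibroblasts, went from 205.2 ± 34.9 to 287.5 ± 35.2 RPM (SD, n = 3), an LFC of 0.49 (SE 0.12; limma, adjusted p = 0.00565). Its lowest knockdown library, at 248.4 RPM, was just above its highest control, at 237.0 RPM. HNRNPUL1, CCDC97 and TMEM91, which overlap TGFB1 on the opposite strand, were also called higher (LFC 0.22, 0.23 and 0.54). HNRNPUL1 was of similar abundance, at 219.0 ± 1.70 RPM in controls and 254.7 ± 8.53 RPM in knockdowns. The strand setting of the counts is not given, so reads at TGFB1 are uncertain. The call on TGFB1 was lost without an intensity trend in the variance model (limma adjusted p = 0.0554) and with robust variance estimates (0.0688). TGFB3 had 4.61 ± 0.226 RPM in controls and 3.98 ± 0.746 RPM in knockdowns, and the groups overlapped (LFC -0.23; limma adjusted p = 0.227). Its LFC was -0.35 without knockdown replicate 2 and -0.08 without knockdown replicate 3.

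Per exon base, TGFB1 made up nearly all of the TGF-beta ligand RNA in both groups. TGFB2 held 3.34%, 4.56% and 3.84% of TGFB1, TGFB2 and TGFB3 reads per base in controls and 6.91%, 5.53% and 5.82% in knockdowns. Every knockdown library was above every control, and an exact two-sided permutation test had p = 0.1, its lowest possible value with 3 libraries a group. Of 9 shares of this kind computed, each had this p, which adjustment over them leaves at 0.1. With the longest transcript as the length, the mean shares were 3.40% and 5.32%.

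**Figure D2:**
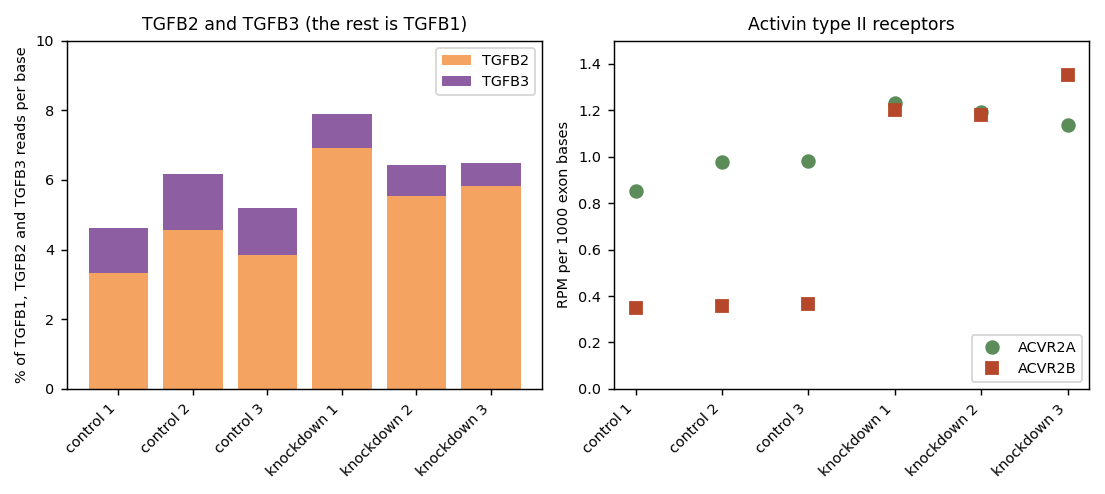
Left, TGFB2 and TGFB3 as a percentage of the reads per exon base of all 3 TGF-beta ligands, by library, with TGFB1 as the remainder; right, ACVR2A and ACVR2B in RPM per kilobase of exon. The TGFB2 bar reaches 5.53% or more in each knockdown and at most 4.56% in controls, and ACVR2B rises to the level of ACVR2A in knockdowns.

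The promoter of TGFB2 is shown because this ligand more than doubled with little spread within groups. It covers the 250 bases before a RefSeq start on GRCh38.p14, plus strand, chr1:218345086-218345335, and capitals mark matches to CAGAC, the short SMAD-binding word (searched on both strands), and to TATAA (given strand).
TGFB2: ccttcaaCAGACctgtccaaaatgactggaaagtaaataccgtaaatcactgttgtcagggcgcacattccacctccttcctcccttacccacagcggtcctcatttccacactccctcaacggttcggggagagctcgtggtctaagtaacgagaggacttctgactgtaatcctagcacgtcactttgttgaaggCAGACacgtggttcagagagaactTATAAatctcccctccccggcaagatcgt
It holds 2 CAGAC words, and 38.0% of the 35116 RefSeq start windows of this length hold at least 1. The 44 members with an entry have 82 starts, of which 39.0% hold it, close to the share among all starts.

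Latent TGF-beta binding proteins hold the inactive ligand in the matrix. LTBP2, which binds fibrillin rather than the latent ligand, rose from 673.5 ± 7.92 to 920.2 ± 42.5 RPM (SD, n = 3), an LFC of 0.45 (SE 0.04; limma, adjusted p = 1.7e-05). LTBP1, in controls the most abundant of the 4 per exon base, was at 781.5 ± 41.9 and 749.6 ± 27.2 RPM, with overlapping groups and an LFC of -0.06. LTBP3 (LFC 0.11) and LTBP4 (0.14) did not pass the test either, and their libraries spread widely within each group. LTBP4 ran from 48.6 to 86.2 RPM in controls and from 59.7 to 82.3 RPM in knockdowns.

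That spread followed base composition. Genes with at least 60% GC lay above their group's mean in control replicate 1 (median log2 deviation 0.13) and knockdown replicate 2 (0.11), and below it in control replicate 2 (-0.15) and knockdown replicate 1 (-0.13). Among the 6 members above 60% GC, 5 had the order control 1, 3, 2 and knockdown 2, 3, 1 from highest to lowest: TGFB1, LTBP3, LTBP4, ENG and BMP1. Of all genes of that GC content 42.9% had it, against 4.88% of the others. SKI, NOG, SMAD6, ID1, ID3 and ACVR1B had it too. After removal of the trend with GC content and length, an alternative added after seeing the data, LTBP3 and LTBP4 passed the test with an LFC of 0.31 each (limma adjusted p 2.0e-05 and 0.00184). TGFB1 then had an LFC of 0.67 (limma adjusted p = 5.1e-08).

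The receptor genes of the TGF-beta and activin arm rose, and the co-receptor endoglin fell. TGFBR1, the type I receptor kinase (chromosome 9, 101866320 to 101916474), stood at 40.6, 40.8 and 38.3 RPM in controls and 67.1, 66.3 and 65.3 RPM in knockdowns. The groups were well apart, with an LFC of 0.73 (SE 0.05; limma, adjusted p = 1.4e-06). TGFBR2, the type II receptor that binds the ligand first, changed much less, from 300.2 ± 8.90 to 333.0 ± 9.61 RPM (SD, n = 3), an LFC of 0.15 (limma adjusted p = 0.0148). Its call was lost without control replicate 3 (limma adjusted p = 0.0613) and without an intensity trend (0.0737). ENG, endoglin, a co-receptor for TGF-beta and BMP9 best known from endothelial cells, went from 188.3, 170.7 and 179.9 RPM to 123.3, 130.4 and 130.2 RPM. It was the single member of its arm called lower, with an LFC of -0.49 (SE 0.05, limma adjusted p = 2.1e-05). With the GC and length trend removed the value was -0.33. TGFBR3, betaglycan, which presents TGF-beta 2 to its receptors, was at 11.8 ± 1.04 and 10.8 ± 0.511 RPM and did not pass the test (LFC -0.12).

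ACVR2B, a type II receptor for activins and several other ligands, had the largest change of all members. The gene (ENSG00000114739.9, chromosome 3, 38495342 to 38534633) stood at 5.46, 5.59 and 5.78 RPM in controls and 18.9, 18.6 and 21.3 RPM in knockdowns. No library came near the other group, and the LFC was 1.80 (SE 0.08; limma, adjusted p = 1.1e-07), or 3.48-fold. These levels rest on 168 to 598 reads per library. ACVR2B-AS1, which overlaps the gene on the other strand, did not reach the mean of 10 normalized reads needed for a test. ACVR2A, the related type II receptor, rose from 6.34 ± 0.505 to 8.03 ± 0.323 RPM, an LFC of 0.34 (limma adjusted p = 0.0123). Per exon base, ACVR2B made up 29.0%, 26.6% and 27.3% of the RNA of this receptor pair in controls and 49.3%, 49.7% and 54.3% in knockdowns (exact permutation p = 0.1, its lowest possible value). The type I activin receptor ACVR1B rose by less, with an LFC of 0.21 (limma adjusted p = 0.00861).

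The activin subunit gene INHBA, whose dimer is activin A, was at 211.6 ± 31.2 RPM in controls and 210.4 ± 12.8 RPM in knockdowns (SD, n = 3). The groups overlapped fully, and limma gave an LFC of 0.00 with an SE of 0.09. INHBB, the other subunit gene, had between 0 and 3 reads per library and was not tested. FST, follistatin, which binds and neutralizes activin, rose from 35.1 ± 0.684 to 42.2 ± 2.80 RPM, an LFC of 0.26 (limma adjusted p = 0.00473). FSTL3, a second activin-binding protein, had 28.4 ± 1.17 and 24.9 ± 4.43 RPM and an LFC of -0.21 (limma adjusted p = 0.14). Without knockdown replicate 2 its value was -0.34 and passed the test (limma adjusted p = 0.00764). FSTL1, a secreted glycoprotein that is related to follistatin and is abundant in fibroblasts, rose from 537.5 ± 3.39 to 626.5 ± 16.6 RPM, an LFC of 0.22 (limma adjusted p = 9.6e-04).

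**Figure D3:**
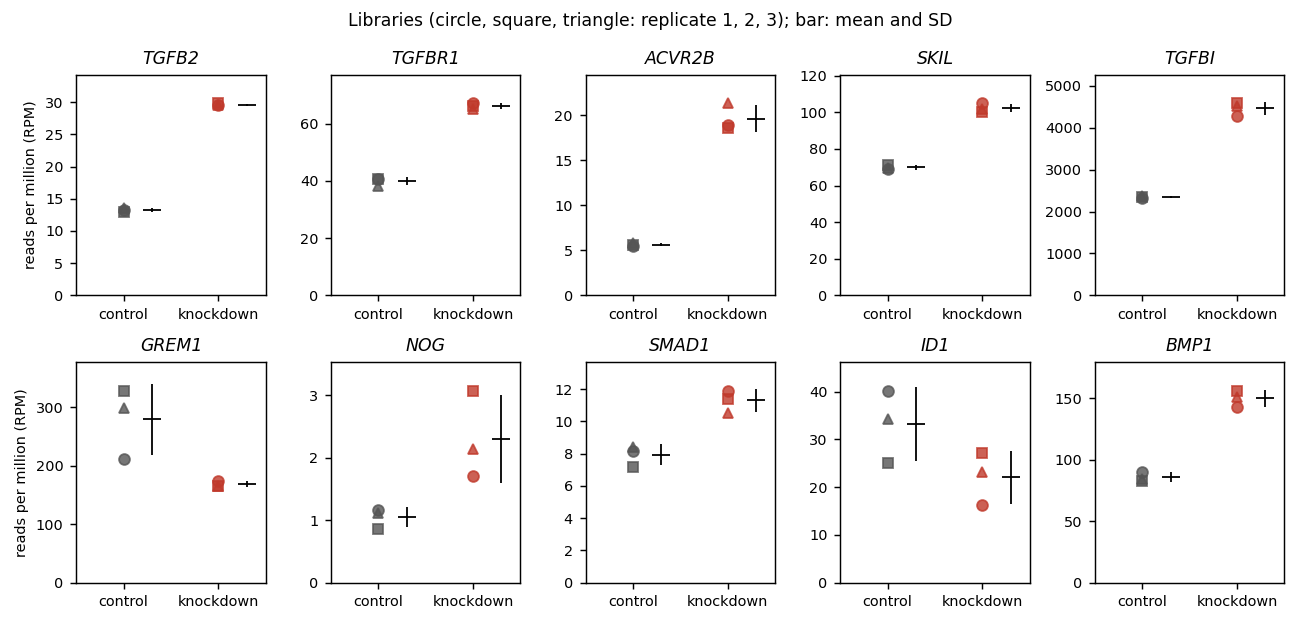
RPM in each library (vertical axes from 0; circles, squares and triangles are replicates 1, 2 and 3; the bar beside them is the mean and SD) for the 10 members with an adjusted p under 0.05 and an absolute LFC of at least 0.5. All panels show separate groups except ID1, where control replicate 2 at 25.0 RPM lies below knockdown replicate 2 at 27.1 RPM.

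On the BMP side, 1 of 3 ligands passed the test. BMP4 rose from 13.1 ± 1.29 to 17.5 ± 1.38 RPM (SD, n = 3), an LFC of 0.41 (SE 0.09; limma, adjusted p = 0.00356). BMP2, at 46.6 ± 5.20 and 45.2 ± 7.95 RPM, and BMP6, at 0.964 ± 0.162 and 0.836 ± 0.0472 RPM, had overlapping groups and did not pass the test. BMP1 is named with the BMPs but is an astacin protease that trims procollagen and also cleaves chordin and LTBP1. It stood at 90.4, 82.9 and 84.2 RPM in controls and 142.5, 156.2 and 151.1 RPM in knockdowns. These groups were clearly separate, with an LFC of 0.80 (SE 0.05; limma, adjusted p = 1.1e-06).

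The secreted BMP antagonists went in opposite directions. GREM1, gremlin, the most abundant of the 3 per exon base (chromosome 15, 33010175 to 33026870), had 210.7, 328.1 and 299.0 RPM in controls and 174.5, 165.3 and 164.9 RPM in knockdowns. The controls were spread out and control replicate 1 was the lowest of them, but all lay above the knockdowns. The LFC was -0.71 (SE 0.12; limma, adjusted p = 0.00108). NOG, noggin, was near the bottom of the range, at 1.17, 0.866 and 1.11 RPM in controls and 1.70, 3.07 and 2.14 RPM in knockdowns. It rose by an LFC of 1.10 (SE 0.23; limma, adjusted p = 0.0028) on 26 to 72 reads per library, and with a pseudocount of 1 CPM the LFC was 0.67. CHRD, chordin, had 0 to 5 reads per library and was not tested. BAMBI, a pseudoreceptor without a kinase domain that dampens signalling, was at 6.15 ± 0.340 and 7.06 ± 1.11 RPM and did not pass the test (LFC 0.19).

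Among BMP receptors, the type II receptor BMPR2 rose from 169.5 ± 4.28 to 213.9 ± 11.5 RPM (SD, n = 3), an LFC of 0.33 (SE 0.05; limma, adjusted p = 2.7e-04), which was 0.18 with the GC and length trend removed. ACVR1, also called ALK2, a type I receptor, rose from 88.5 ± 4.51 to 105.7 ± 2.30 RPM, an LFC of 0.26 (limma adjusted p = 0.00165). The type I receptor genes BMPR1A (35.3 ± 0.334 and 37.1 ± 2.15 RPM) and BMPR1B (1.31 ± 0.201 and 1.38 ± 0.195 RPM) overlapped between the groups and did not pass the test.

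The BMP receptor SMADs among the members, SMAD1 and SMAD5, rose, while SMAD9, which is not a member, did not pass the test (LFC -0.07). SMAD1 stood at 8.19, 7.19 and 8.42 RPM in controls and 11.9, 11.4 and 10.5 RPM in knockdowns. The groups did not overlap, and the LFC was 0.50 (SE 0.09; limma, adjusted p = 0.00119). SMAD5, the more abundant of the pair, rose from 100.1 ± 1.80 to 133.8 ± 5.94 RPM, an LFC of 0.42 (SE 0.05; limma, adjusted p = 4.6e-05). SMAD2, of the TGF-beta and activin arm, rose from 55.2 ± 0.538 to 67.4 ± 3.83 RPM, an LFC of 0.29 (limma adjusted p = 0.00136). With the GC and length trend removed, SMAD2 had 0.07 and no call (limma adjusted p = 0.208). RP11-380M21.2 overlaps SMAD2 on the same strand and was more abundant, at 100.5 to 109.2 RPM, so reads at SMAD2 are uncertain. SMAD3 was at 181.3 ± 14.0 and 192.1 ± 3.73 RPM and did not pass the test (LFC 0.09), but passed it without control replicate 1, at an LFC of 0.15 (limma adjusted p = 0.0175).

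The common SMAD4 and the inhibitory SMAD7 were called with small rises. SMAD4 went from 40.0 ± 0.755 to 44.7 ± 1.23 RPM, an LFC of 0.16 (limma adjusted p = 0.0241). SMAD7 went from 17.6 ± 1.03 to 21.1 ± 2.70 RPM with overlapping groups, an LFC of 0.25 (limma adjusted p = 0.0474). SMAD4 lost its call without control replicates 2 or 3 or knockdown replicates 1 or 3 (limma adjusted p 0.0662, 0.0559, 0.0706 and 0.0575), and had an LFC of 0.04 with the GC and length trend removed. SMAD7 lost it without control replicates 1 or 3 or knockdown replicates 2 or 3 (limma adjusted p 0.102, 0.153, 0.117 and 0.191). SMAD6, the inhibitory SMAD of the BMP arm and a direct BMP target, was at 4.23 ± 0.789 and 4.33 ± 0.529 RPM and was not called (LFC 0.05).

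All 3 nuclear corepressors that hold SMADs in check were called higher, against 17.5% of all genes; the group as such was not tested. SKIL, which encodes SnoN and is itself induced by TGF-beta, stood at 68.9, 71.4 and 69.5 RPM in controls and 104.9, 100.2 and 102.0 RPM in knockdowns. The groups were tight and apart, with an LFC of 0.55 (SE 0.04; limma, adjusted p = 4.5e-06). SKI rose by an LFC of 0.35 (limma adjusted p = 0.00551) and TGIF1 by 0.22 (limma adjusted p = 0.0056). Of the ubiquitin ligases that mark SMADs and receptors for degradation, SMURF1 fell from 59.0 ± 2.31 to 50.6 ± 0.641 RPM (LFC -0.22; limma adjusted p = 0.00424). SMURF2 was at 242.2 ± 11.8 and 245.5 ± 14.8 RPM and was not called.

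The promoter of SKIL is shown as a second rising gene, and one with both SMAD words. These are the 250 bases before its RefSeq start on GRCh38.p14, plus strand, chr3:170357465-170357714, and capitals mark a CAGAC word read on the other strand and the GC-rich SMAD word GGCGCC.
SKIL: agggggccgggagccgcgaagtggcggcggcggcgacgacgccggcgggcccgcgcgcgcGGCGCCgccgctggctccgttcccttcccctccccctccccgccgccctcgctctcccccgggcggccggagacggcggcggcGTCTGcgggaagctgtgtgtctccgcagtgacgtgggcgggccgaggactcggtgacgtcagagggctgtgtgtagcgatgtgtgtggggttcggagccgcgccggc
GGCGCC was present in 16.4% of all start windows and in 25.6% of the members' 82 starts, and TGANTCA, the AP-1 word (both strands), in 6.6% and 6.1%. A start with both SMAD words was also found in GREM1, which fell, and in BAMBI, which was not called. BMP4, ACVR1, BMPR2 and SMAD1, which rose, had such a start too. A link between these words and the changes was not tested.

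Of the target genes among the members, TGFBI rose and 3 of 4 ID genes fell. TGFBI, a secreted matrix protein named for its induction by TGF-beta (chromosome 5, 135364584 to 135399507), stood at 2329.8, 2339.4 and 2359.6 RPM in controls and 4270.4, 4577.7 and 4521.5 RPM in knockdowns. It had the highest level of all members per exon base and was 1.90-fold higher in knockdowns, with no overlap (LFC 0.93, SE 0.04; limma, adjusted p = 1.3e-07).

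ID proteins are inhibitors of helix-loop-helix transcription factors. ID1 (chromosome 20, 30193086 to 30194318) had 40.2, 25.0 and 34.3 RPM in controls and 16.2, 27.1 and 23.2 RPM in knockdowns. The groups overlapped, since knockdown replicate 2 was above control replicate 2, and the LFC was -0.59 (SE 0.19; limma, adjusted p = 0.0282). ID3 went from 23.1 ± 3.28 to 17.4 ± 2.11 RPM (SD, n = 3), an LFC of -0.41 (SE 0.11; limma, adjusted p = 0.0127), with its highest knockdown at 19.6 RPM and its lowest control at 19.7 RPM. ID2 went from 28.0 ± 2.19 to 23.1 ± 0.745 RPM, an LFC of -0.28 (SE 0.07; limma, adjusted p = 0.00758), with separate groups. ID4, at 0.839 ± 0.249 and 0.633 ± 0.200 RPM on 13 to 35 reads per library, had an LFC of -0.38 and did not pass the test. So 3 of 4 ID genes were called lower, against 23.5% of all genes.

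The calls on ID1 and ID3 depended on single libraries. ID1 lost its call without control replicate 1 (limma adjusted p = 0.101), control replicate 3 (0.0869), knockdown replicate 1 (0.101) or knockdown replicate 3 (0.06). ID1 also lost it without an intensity trend (0.122) and with robust variance estimates (0.17). ID3 lost its call without knockdown replicate 1 (limma adjusted p = 0.0507) and without an intensity trend (0.0665). With the GC and length trend removed, the LFCs were -0.42 for ID1, -0.21 for ID2 and -0.26 for ID3, all of them called (limma adjusted p 0.0258, 0.0143 and 0.0238).

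**Figure D4:**
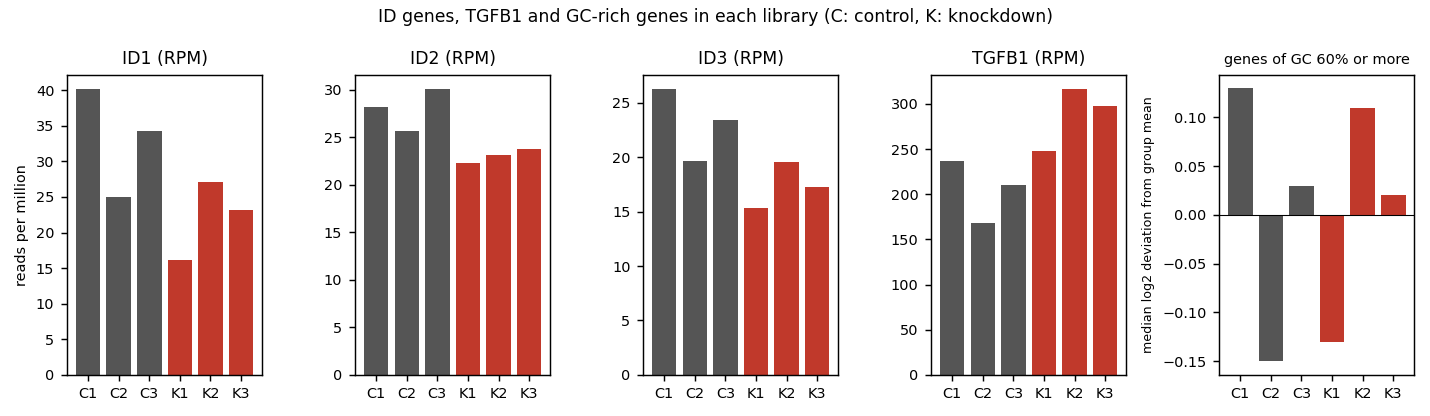
Bars give RPM of ID1, ID2, ID3 and TGFB1 in each library, and in the last panel the median log2 deviation from the group mean over genes with at least 60% GC. ID1, ID3 and TGFB1 follow the same order within each group as the GC-rich genes (highest in control replicate 1 and knockdown replicate 2), while the means of the 3 ID genes are lower and that of TGFB1 is higher in knockdowns.

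The ID promoters are shown because these 3 genes were called lower; each is the 250 bases before the RefSeq start on GRCh38.p14: ID1 at chr20:31605039-31605288 and ID2 at chr2:8681806-8682055 on the plus strand, and ID3 at chr1:23559502-23559751 on the minus strand. Capitals mark CAGAC and TATAA.
ID1: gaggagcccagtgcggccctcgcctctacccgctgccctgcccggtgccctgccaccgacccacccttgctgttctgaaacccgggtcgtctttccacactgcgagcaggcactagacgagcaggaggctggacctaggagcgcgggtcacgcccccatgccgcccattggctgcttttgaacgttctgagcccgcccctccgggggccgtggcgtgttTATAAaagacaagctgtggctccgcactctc
ID2: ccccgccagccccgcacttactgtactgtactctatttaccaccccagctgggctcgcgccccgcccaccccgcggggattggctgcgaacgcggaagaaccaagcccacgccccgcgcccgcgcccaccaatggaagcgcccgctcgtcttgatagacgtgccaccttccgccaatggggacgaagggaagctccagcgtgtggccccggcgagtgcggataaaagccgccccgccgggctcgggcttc
ID3: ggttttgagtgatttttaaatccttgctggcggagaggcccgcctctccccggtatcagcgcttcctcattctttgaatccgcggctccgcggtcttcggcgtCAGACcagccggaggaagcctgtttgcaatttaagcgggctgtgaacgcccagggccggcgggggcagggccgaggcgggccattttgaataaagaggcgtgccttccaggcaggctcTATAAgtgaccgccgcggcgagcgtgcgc
TATAA was found in ID1 and ID3, and in 13.6% of all start windows. CAGAC was found in ID3 alone of these 3, GGCGCC and TGANTCA in none of them (0 matches each). Bases farther upstream were not searched.

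Other genes of the superfamily, outside the 48, moved in both directions: of 39 tested of 63 listed, 14 were higher (35.9%, against 17.5% of all genes) and 11 lower (28.2%, against 23.5%), with a median LFC of 0.08 against -0.04 over all genes. The largest rises were in the BMP-like ligand GDF5 and in ITGB8. ITGB8, an integrin subunit that with ITGAV frees TGF-beta from its latent complex, went from 25.0 ± 1.87 to 89.0 ± 0.697 RPM (SD, n = 3), an LFC of 1.83 (SE 0.06; limma, adjusted p = 1.8e-08). ITGAV, named here for its partner after its values were seen, rose with an LFC of 0.19 (limma adjusted p = 0.00704), and had no call with the GC and length trend removed (0.234). GDF5 was barely detected, with 0.501 ± 0.182 RPM in controls and 2.45 ± 0.428 RPM in knockdowns (LFC 2.32; limma adjusted p = 9.4e-05), and with a pseudocount of 1 CPM the LFC was 1.20. GDF6, another BMP-like ligand, went from 0.571 ± 0.125 to 1.19 ± 0.267 RPM (LFC 1.04; limma adjusted p = 0.00586), with 0.47 at that pseudocount.

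Several further genes of that list fell and others rose. NRROS, which tethers latent TGF-beta 1 to the cell surface, went from 4.20 ± 0.346 to 2.05 ± 0.215 RPM (LFC -1.03; limma adjusted p = 1.4e-04). LRRC32, which does the same in other cells and was picked out after its values were seen, rose (LFC 0.66). FURIN, the protease that cleaves TGF-beta precursors, fell (LFC -0.62), and so did the BMP modulators TWSG1 (-0.46) and RGMB (-0.62), while fibrillin FBN1 rose (0.56). These 4 were likewise chosen after their values were seen. ACVRL1, the type I receptor that pairs with endoglin, fell from 33.2 ± 3.08 to 27.6 ± 1.20 RPM (LFC -0.26; limma adjusted p = 0.013), with no call without an intensity trend (0.0545). SMAD9 was at 3.85 ± 0.632 and 3.65 ± 0.595 RPM and did not pass the test.

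Textbook TGF-beta targets outside the 48 did not move as 1 block. Of 40 tested, 22 were higher (55.0%, against 17.5% of all genes) and 13 lower (32.5%, against 23.5%), with a median LFC of 0.27 against -0.04 over all genes. Neither this list nor that of BMP targets below was split by whether the ligand raises or lowers a gene. Higher and lower thus do not mean with or against signalling. ADAM12 (LFC 2.80), ELN, which encodes elastin (1.60), and COL4A1 (1.18) rose most. CTGF, a matricellular protein, rose from 200.3 ± 11.9 to 315.3 ± 30.2 RPM (LFC 0.65; limma adjusted p = 2.7e-05). PMEPA1, a feedback inhibitor of SMAD signalling, rose from 46.9 ± 4.07 to 73.8 ± 6.30 RPM (LFC 0.65; limma adjusted p = 6.6e-05). Type I collagen genes fell, COL1A1 by 0.88 and COL1A2 by 0.77 on the log2 scale, as did TGM2 by 0.89, while COL3A1 rose (LFC 0.38). These last 4 were chosen after their values were seen.

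Of 17 tested BMP targets outside the 48, 4 were higher and 2 lower (35.3%, against 41.0% of all genes), with a median of -0.04. The lists share genes: SNAI2, 1 of the 2 lower, is also counted among the TGF-beta targets, and SMAD9 among the other pathway genes. GATA6 rose from 1.40 ± 0.103 to 3.32 ± 0.381 RPM (LFC 1.24; limma adjusted p = 7.6e-05). HEYL, under 1 RPM in every library, rose with an LFC of 1.00 (limma adjusted p = 0.0495), or 0.33 with a pseudocount of 1 CPM. Its call was lost without control replicates 2 or 3 or any 1 of the knockdown replicates (limma adjusted p from 0.0635 to 0.152). The count of 6 fell to 2 without control replicate 3 and to 2 without knockdown replicate 3.

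**Figure D5:**
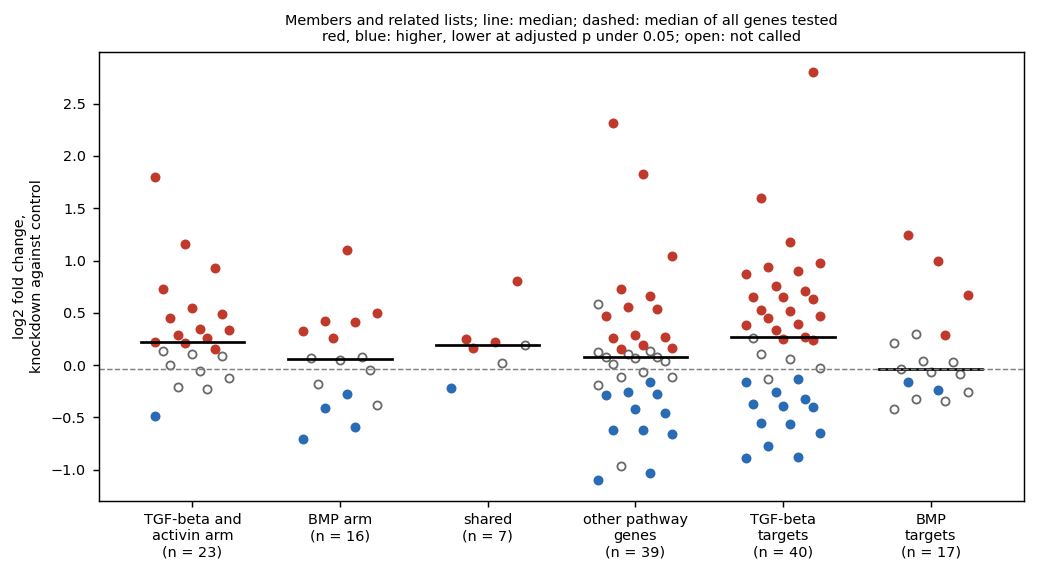
Log2 fold change, knockdown against control (vertical axis), of each tested gene in the 3 groups of members and the 3 related lists; black lines are medians, the dashed line is the median of all genes (-0.04), red and blue points passed an adjusted p of 0.05 and open points did not. The TGF-beta and activin arm has 1 blue point (ENG), while the BMP arm has 4 (GREM1 and the target genes ID1, ID2 and ID3).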

How the data were processed

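PolyA RNA of 6 libraries was read as single 50 bp reads, per the labels' protocols. Bowtie2, featureCounts and hg19 are listed in the submitters' processing notes, with no versions or roles; the strand setting and annotation are not given in the sources used here. Thus reads of overlapping genes are uncertain: 14 members overlap a listed gene on the same strand and 23 on the opposite strand. The authors deposited 1 table of log2 values, log2 of reads plus 0.5 per 1000000 of an effective library size; undoing this gave whole reads for 100% of values (tolerance 0.0001 reads). Columns were matched to samples by replicate number and siRNA name.

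Limma 3.58.1 (R 4.3.3; lmFit, eBayes with an intensity trend, two-sided) was fitted to the deposited log2 values of 19048 genes with a mean of at least 10 normalized reads. P-values were adjusted over all of them (Benjamini-Hochberg) and called at 0.05. With the offset, LFCs of genes with few reads are pulled toward a value above 0, because the knockdown libraries were shallower. Without the filter the median LFC over 34689 genes was 0.08, against -0.04 with it. The fit was tested on simulated data. Replicates of a group differed by more than sampling noise (chi-square per degree of freedom 2.83 to 11.1). The members and gene lists were chosen with earlier results of these data known. Members with an adjusted p under 0.05 and a log2 fold change beyond 0.5 either way are given with the value in every library. Of the other lists, called genes with a log2 fold change of 1 or more either way are named, plus CTGF, PMEPA1, ACVRL1 and SMAD9; some genes this rule names are not reported here. Exon bases and GC content came from GENCODE 29 by gene ID, promoters from RefSeq (GRCh38.p14) by symbol (44 of 48 members); gene coordinates are the table's. Alternatives were 2 other scalings, 2 pseudocounts, 2 filters, 3 variance models, thinned reads, the replicate number as a block, each library left out and, added after seeing the data, removal of the GC and length trend.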

Additional observations from a re-analysis of the deposited data

How the results depend on the processing

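Of 30 called members, 23 kept their sign and call in all 18 other fits and 0 reversed in any. Of the 16 without a call, 4 gained one and 9 changed sign in at least 1 fit; the causes were not tested. Deviations of equal-numbered libraries correlated at -0.15, -0.18 and 0.07. This cannot decide whether the replicate numbers pair the libraries, since the deviations of GC-rich genes had opposite signs in equal-numbered libraries of replicates 1 and 2. With the replicate number as a block, 26 members were called, and the calls on ID1, TGFBR2, SMAD4 and SMAD7 were lost.

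Under an adjusted p of 0.01 there were 5195 called genes, 3 called members shared by both arms and 2 BMP targets. With an LFC (log2 fold change) of at least 0.5 either way as a second condition there were 2643 genes, 10 members, 5 of the TGF-beta and activin arm, 4 of the BMP arm, 1 shared, 12 other pathway genes, 20 TGF-beta targets and 3 BMP targets. Without an intensity trend, and with the replicate block, 3 shared members and 3 BMP targets were called. Leaving out 1 library at a time gave 3 to 4 shared members and 2 to 5 BMP targets.

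LTBP1 had an LFC of 0.0013 with quantile normalization. With the GC and length trend removed, the LFC was -0.10 for INHBA, -0.07 for BMPR1A, -0.02 for BMPR1B and -0.08 for SMURF2. Over the fits without 1 library, the LFC ran from -0.06 to 0.27 for LTBP3, -0.07 to 0.35 for LTBP4, -0.12 to 0.09 for INHBA, -0.19 to 0.05 for BMP2, -0.05 to 0.16 for BMPR1B, -0.11 to 0.15 for SMAD6, -0.02 to 0.07 for SMURF2 and -0.19 to 0.05 for SMAD9. The other members without a call whose LFC moved by over 1.5 times when 1 library was left out kept their sign, with ranges of -0.35 to -0.08 for TGFB3, -0.10 to -0.02 for LTBP1, -0.18 to -0.05 for TGFBR3, -0.34 to -0.09 for FSTL3, 0.05 to 0.15 for SMAD3, -0.27 to -0.05 for BMP6, 0.02 to 0.10 for BMPR1A, -0.65 to -0.18 for ID4 and 0.07 to 0.29 for BAMBI. Depth limits the members with few reads: the SE was 0.31 for ID4, 0.23 for NOG, 0.21 for BMP6 and 0.19 for BMPR1B, and INHBB and CHRD could not be tested.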
